A study of Mus musculus with 12 samples.

Results

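The genes described here are the nuclear genes of the mitochondrial respiratory chain and ATP synthase, measured in mouse bone marrow derived macrophages with and without the copper metabolism gene Commd1. They were chosen by name: all gene names on the array that begin with Ndufa, Ndufb, Ndufc, Ndufs, Ndufv, Uqcr, Atp5, Cox4i, Cox5, Cox6, Cox7 or Cox8. This gave 85 genes, each represented by its brightest probe, and 82 of them were well above background on all 12 arrays. The other 3 (Cox7b2, Cox8b and Cox8c) were above background on none. The 82 genes, out of 22997 genes tested, comprised 36 of complex I, 8 of complex III, 17 of complex IV, 15 of complex V and 6 assembly or related factors that share the prefixes. Ndufa4 and Ndufa4l2 were counted with complex IV, where NDUFA4 is now placed.

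The macrophages came from 2 Commd1 knockout (KO) mice and 2 wildtype (WT) mice. Bone marrow from long bones had been cultured for 10 days with GM-CSF (20 ng/mL) in all groups, and the cells of each mouse were split and left untreated or given LPS (10 ng/mL, from Escherichia coli) for 3 h or 24 h. Each of the 6 groups therefore held 2 arrays, 1 per mouse, where the same replicate number within a genotype was taken as the same mouse. The labels name no strain, age or promoter that would limit the knockout to a cell type. Levels are log2 processed signals relative to each array's 75th percentile, so a level of 0 is that percentile, and changes are differences of group means tested with limma across all genes. A gene is called higher or lower where its Benjamini-Hochberg adjusted p over all genes was below 0.05.

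Commd1 itself read -0.50 and -0.01 in untreated KO macrophages, against 2.72 and 2.79 in untreated WT macrophages, and the gap was as wide at 3 h and at 24 h. All 10 macrophage markers examined were well above background on every array, and their summed linear level ran from 374 to 381 in untreated KO cells and from 320 to 337 in untreated WT cells. The dendritic cell markers, of which 3 of 7 were above background on all arrays, summed to 1.85 to 2.27 in untreated KO cells and to 4.90 to 5.12 in untreated WT cells. Of the 3, Itgax read 0.78 and 1.14 in untreated KO cells, against 2.33 and 2.27 in untreated WT cells, while Zbtb46 read -4.83 and -4.76, against -4.89 and -5.12. The sum also moved with LPS, to 5.84 to 6.70 at 3 h and 1.02 to 1.18 at 24 h in KO cells, and to 6.88 to 8.01 and 1.52 to 1.54 in WT cells. The neutrophil markers, 7 of 7 on the array above background on all arrays, summed to 13.4 to 14.6 in KO cells at 3 h, against 19.2 to 19.7 in WT cells at 3 h. Of these, Elane read 3.514 and 3.765 in KO cells at 3 h, against 4.036 and 4.066 in WT cells, and the others 1.003 or lower. The B cell markers summed to 1.605 to 1.675 in untreated KO cells and to 0.756 to 0.826 in untreated WT cells. The fibroblast and stroma markers summed to 1.977 to 3.296 in untreated KO cells and to 2.061 to 2.397 in untreated WT cells. The part of these marker shifts in the results was not tested. The untreated, 3 h and 24 h arrays were on separate slides, and slide and LPS time therefore cannot be told apart, and on each slide WT and KO held fixed positions, so genotype and position cannot be told apart. Between 60.1% and 73.0% of spots per array were well above background, the lowest share being on the array of KO mouse 1 at 24 h, which also had the most outlier spots (589, against 132 to 214 on the others). The response of log2 signal to spike-in amount, relative to the mean array, was 1.04 to 1.05 on the KO arrays at 24 h, against 0.954 to 0.967 on the untreated WT arrays, a difference in contrast that moves with time and genotype and whose part in the results was not tested.

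In the inner mitochondrial membrane, complex I takes electrons from NADH, complex III passes them from ubiquinol to cytochrome c, complex IV hands them to oxygen, and complex V uses the proton gradient that results to make ATP. All but complex II combine subunits encoded in the nucleus with subunits encoded in mitochondrial DNA, and dedicated assembly factors join them. In mouse macrophages LPS is known to turn metabolism towards glycolysis, and nitric oxide made late in the response impairs the chain. The arrays measure mRNA in whole cultures, where fewer cells of a type and less RNA per cell cannot be told apart, and they say nothing of protein or respiration.

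After 3 h of LPS few of these genes moved. In KO macrophages 7 of the 82 were higher and 3 lower than untreated (12.2%, where 52.1% of all genes tested were called, 26.4% higher and 25.7% lower). In WT macrophages 14 were higher and 3 lower (20.7%, where 46.5% of all genes were called, 23.2% higher and 23.3% lower). With either WT mouse left out, each WT group keeps 1 array and most of the WT calls were lost. Calls over all genes also fell there, though less steeply, and all 17 genes kept their direction. In complex I, none of the 36 genes passed in WT cells at 3 h (2 had an unadjusted p under 0.05, as 53.3% of all genes did), and the lowest adjusted p was 0.0603, for the accessory subunit Ndufs4. The median log2 change was 0.04 in KO and 0.10 in WT cells for complex I, 0.18 and 0.19 for complex III, 0.21 and 0.27 for complex IV, and 0.18 and 0.23 for complex V, beside 0.06 and 0.03 over all genes. Most of the 82 genes stayed within 0.5 log2 units of untreated, 95.1% of them in KO cells and 93.9% in WT cells, whereas 53.3% and 58.9% of all genes did. The small positive medians depended on how the arrays were scaled and turned negative under quantile normalization (-0.17 in KO and -0.13 in WT cells over the 82 genes), where 3 genes were higher and 29 lower in KO cells.

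**Figure D1:**
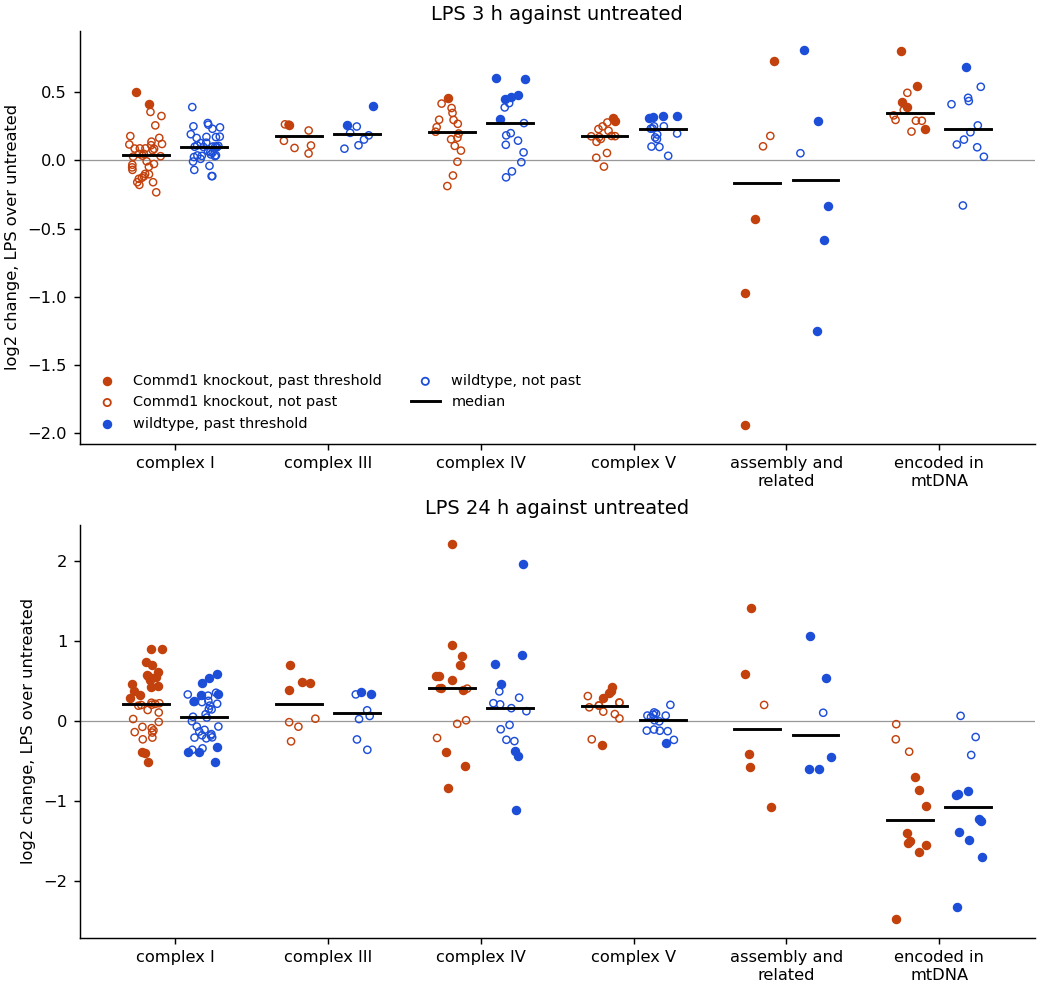
Log2 change of each gene (points) after LPS for 3 h (top) and 24 h (bottom) over untreated, by complex, in Commd1 knockout (orange) and wildtype (blue) macrophages; filled points passed an adjusted p of 0.05 and black bars are medians. At 24 h the nuclear genes scatter on both sides of 0, with Cox6a2 highest at 2.22 in KO and 1.96 in WT cells, while the subunits encoded in mitochondrial DNA have medians of -1.24 in KO and -1.08 in WT cells.

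The calls at 3 h that held under all 6 ways of scaling the arrays were 5 genes, and they were the same 5 in KO and WT macrophages: Ndufaf4 and Cox6b2 higher, and Ndufaf1, Atp5s and Atp5sl lower. All but Cox6b2, which encodes the testis form of a complex IV subunit, are assembly or related factors and no subunits of a finished complex. Over all 22997 genes tested, 9202 calls in KO and 8134 in WT cells held under all 6 scalings at 3 h. Those common to both genotypes were 78.0% of that KO list and 88.2% of that WT list. Atp5sl, now named Dmac2, encodes a factor for assembling the distal part of complex I's membrane arm. Its probe (mm9, chr7:26410510-26410569) read 0.56 and 0.81 at 3 h, against 2.68 and 2.57 untreated, in KO cells. The WT arrays gave 1.03 and 1.04 at 3 h, against 2.35 and 2.23 untreated. Every 3 h array lay below every untreated one in both genotypes. The fall was 3.84-fold in KO cells (log2 change -1.94 ± 0.12 SE, adjusted p = 3.56e-06) and 2.39-fold in WT cells (-1.26 ± 0.12, adjusted p = 6.37e-05). The difference between the 2 responses, -0.69 ± 0.17 (95% interval -1.09 to -0.28), had an unadjusted p of 0.00415 but an adjusted p of 0.173.

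Ndufaf4, another complex I assembly factor, moved the other way. It read 0.25 and 0.19 at 3 h, against -0.51 and -0.51 untreated, in KO cells. Its WT levels were 0.57 and 0.65 at 3 h, against -0.39 and -0.02 untreated. The 3 h and untreated arrays did not overlap in either genotype, and the rise was 1.66-fold in KO (adjusted p = 0.0028) and 1.75-fold in WT cells (adjusted p = 0.00196). A dimmer second probe for Ndufaf4 disagreed, with log2 changes of -0.59 in KO and -0.35 in WT cells at 3 h, so the direction rests on the brighter probe. Ndufaf1, which works in an early intermediate of complex I assembly, fell by 0.43 in KO and by 0.34 in WT cells on the log2 scale (adjusted p = 0.00648 and 0.0236). Atp5s, now Dmac2l, fell by 0.97 in KO and by 0.59 in WT cells (adjusted p = 0.000808 and 0.0138).

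Among the subunits called in WT cells at 3 h were the regulatory complex IV subunit Cox4i1 (0.48 ± 0.12, adjusted p = 0.0106), Cox7b (0.61 ± 0.18) and Cox5b (0.45 ± 0.15), and the catalytic pair of ATP synthase, Atp5a1 and Atp5b (0.32 and 0.31). Atp5a1 and Atp5b were also called in KO cells, at 0.29 and 0.31. None of these subunits was called under all 6 scalings, and under quantile normalization the change of Atp5b in WT cells was -0.01 and that of Atp5a1 in KO cells was -0.05. Of the 82 genes 22 had several probes above background. One of them was Ndufv3, whose second probe fell by 1.68 in KO and by 1.30 in WT cells at 3 h while the brighter one gave -0.16 and -0.12.

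After 24 h more of the genes had moved, and both ways. In KO macrophages 35 of the 82 were higher and 10 lower than untreated (54.9%, where 57.5% of all genes were called, 26.0% higher and 31.5% lower). In WT macrophages 14 were higher and 11 lower (30.5%, where 49.9% of all genes were called, 23.6% higher and 26.3% lower). With either WT mouse left out, each WT group keeps 1 array and most of the WT calls were lost. Calls over all genes also fell there, though less steeply, and all 25 genes kept their direction. Many of the KO calls were also lost as each mouse was left out in turn. The share called in KO cells was close to that of all genes tested, and in WT cells below it, but all genes tested included dimmer ones. Among genes above background on all arrays, as the 82 were, 11686 of 17978 were called in KO cells and 10453 of 17979 in WT cells. In both genotypes this was a larger share than that of the 82 genes. The WT balance depended on the scaling, with 11 higher and 20 lower under the percentile over probes detected on all arrays and 11 higher and 21 lower under quantile normalization. Within complex I, 16 genes were higher and 3 lower in KO cells, and 6 were higher and 4 lower in WT cells. Complex IV had 9 higher and 3 lower in KO cells and 4 higher and 3 lower in WT cells. Complex III had 4 higher in KO and 2 in WT cells with none lower, and complex V had 4 higher and 1 lower in KO cells and only the 1 lower, Atp5a1, in WT cells. The median change of the 82 genes was 0.23 in KO cells, where that of all genes was -0.07, and 0.06 in WT cells, where that of all genes was -0.04. The gap between these medians varied with the scaling. In KO cells it was positive under all 6, from 0.06 with normexp to 0.29 with the percentile over detected probes. Normexp put all genes at 0.20 in KO cells, against 0.26 for the 82. In WT cells the 82 genes fell below all genes with quantile normalization (-0.08 against -0.05) and normexp (0.06 against 0.17).

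**Figure D2:**
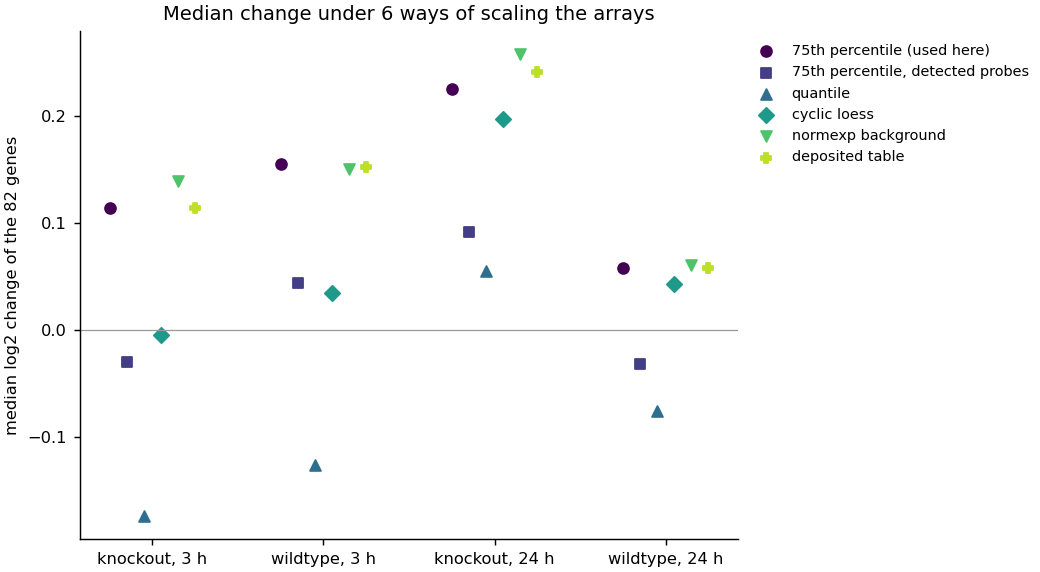
Median log2 change of the 82 genes over untreated (vertical axis) at 3 h and 24 h in knockout and wildtype macrophages, under 6 ways of scaling the arrays (symbols). At 24 h in KO cells the median lies above 0 under all 6 (0.06 to 0.26), while in the other comparisons at least 1 scaling puts it below 0.

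The KO median at 24 h was positive under all 6 scalings (0.06 to 0.26), but the KO mice differed from each other. Mouse by mouse, the median change at 24 h was 0.10 in KO mouse 1 and 0.35 in KO mouse 2, against 0.09 in WT mouse 1 and -0.01 in WT mouse 2, while the median of all genes was -0.12 in KO mouse 1 and -0.01 in KO mouse 2. At 24 h 52 of the 82 genes read above untreated in KO mouse 1, and 67 did in KO mouse 2. The difference of the 24 h responses between genotypes had a median of 0.18 over the 82 genes, where that of all genes was -0.05. None of the 82 genes passed the test of that difference (limma, where 0.409% of all genes were called), and 6 had an unadjusted p under 0.05 (14.6% of all genes). Of the 3 h responses the test of the difference called none of the 82 either (0.0348% of all genes), with 1 at an unadjusted p under 0.05 (12.4% of all genes).

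Of the calls that held under all 6 scalings at 24 h there were 32 in KO cells (23 higher, 9 lower) and 21 in WT cells (11 higher, 10 lower), and the KO and WT comparisons share no samples. Over all 22997 genes tested, 9800 calls in KO and 8990 in WT cells held in the same way. Of the 82 genes, those common to both lists numbered 18, all in the same direction, which is 56.2% of the KO list and 85.7% of the WT list. Over all genes the common calls were 78.7% of the KO list and 85.8% of the WT list. Higher in both were 4 complex I subunits (Ndufs3, Ndufs4, Ndufb9 and Ndufc2), the factors Ndufaf3 and Ndufaf4, Uqcrc2 of complex III, and Cox5a, Cox6a2 and Cox6b2 of complex IV. Lower in both were Ndufv1 and Ndufb11 of complex I, the factors Ndufaf2 and Atp5sl, Ndufa4, Cox7a1 and Cox7a2l, and Atp5a1 of complex V. With each of the 4 mice left out in turn, the 45 genes called in KO cells and the 25 called in WT cells all kept their direction. Many of the calls were lost in both genotypes, in fits that keep 1 array in each group of the mouse left out. Cox5a, Cox6a2 and Ndufaf3 were called every time in both genotypes.

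The promoters of 5 genes from these groups are printed from RefSeq (GRCm38.p6), from 250 bases before to 30 bases after the annotated start, because 3 of them (Cox5a, Ndufs3 and Ndufaf4) belong to genes that were higher in both genotypes at 24 h and the other 2 (Cox7a1 and Ndufa4) to genes that were lower. For Ndufaf4 this again rests on the brighter probe, with log2 changes at 24 h of 0.58 in KO and 0.53 in WT cells, while the second probe gave -0.25 and 0.07. Capitals mark matches to any of 7 motifs on either strand: the NRF1 site (GCGC, any 1 base, then TGCGC), the ETS site CCGGAAG bound by GABP, the YY1 site AAGATGG, the GC box GGGCGG, the CRE TGACGTCA, the E-box CACGTG and the NF-kB site (GGG, any 2 bases, then TTTCC). They lie at chr9:57520982-57521261 (+ strand, Cox5a), chr2:90904692-90904971 (- strand, Ndufs3), chr4:24897833-24898112 (+ strand, Ndufaf4), chr7:30183921-30184200 (+ strand, Cox7a1) and chr6:11907421-11907700 (- strand, Ndufa4).
Cox5a: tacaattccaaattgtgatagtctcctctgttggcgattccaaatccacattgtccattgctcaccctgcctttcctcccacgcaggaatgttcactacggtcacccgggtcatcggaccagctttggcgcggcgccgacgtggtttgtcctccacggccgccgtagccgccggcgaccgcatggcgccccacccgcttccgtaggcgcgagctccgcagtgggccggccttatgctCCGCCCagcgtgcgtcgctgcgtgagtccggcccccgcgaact
Ndufs3: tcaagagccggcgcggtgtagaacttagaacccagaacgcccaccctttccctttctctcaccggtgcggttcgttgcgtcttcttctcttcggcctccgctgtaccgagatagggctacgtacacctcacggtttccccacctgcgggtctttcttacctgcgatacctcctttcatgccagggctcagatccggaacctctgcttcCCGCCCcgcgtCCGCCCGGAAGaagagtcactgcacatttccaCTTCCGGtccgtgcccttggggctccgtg
Ndufaf4: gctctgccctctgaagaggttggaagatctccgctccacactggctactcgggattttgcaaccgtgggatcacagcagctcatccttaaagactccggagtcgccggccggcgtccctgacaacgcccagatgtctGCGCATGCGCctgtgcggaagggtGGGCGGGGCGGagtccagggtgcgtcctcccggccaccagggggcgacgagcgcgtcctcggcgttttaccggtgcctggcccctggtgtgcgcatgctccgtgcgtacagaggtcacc
Cox7a1: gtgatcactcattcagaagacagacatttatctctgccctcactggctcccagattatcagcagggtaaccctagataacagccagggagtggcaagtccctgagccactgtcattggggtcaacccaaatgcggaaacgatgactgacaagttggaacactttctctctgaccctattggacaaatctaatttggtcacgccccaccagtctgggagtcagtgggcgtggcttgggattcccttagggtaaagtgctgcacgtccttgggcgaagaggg
Ndufa4: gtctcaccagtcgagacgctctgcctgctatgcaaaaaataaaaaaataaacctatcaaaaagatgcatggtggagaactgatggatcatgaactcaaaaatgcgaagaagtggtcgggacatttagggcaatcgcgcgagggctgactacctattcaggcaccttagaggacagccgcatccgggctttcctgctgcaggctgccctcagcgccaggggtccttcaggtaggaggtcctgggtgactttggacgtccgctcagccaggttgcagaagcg

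Ndufaf4 has an NRF1 match 113 bases before its start and a pair of overlapping GC boxes beside it, Ndufs3 has ETS and GC box matches around its start, and Cox5a has 1 GC box, 13 bases before its start. The Cox7a1 and Ndufa4 windows hold no match to these 7 letter strings, which says nothing of the factors themselves. Matches were not confined to genes that were higher in both genotypes. Of those lower in both, Cox7a2l and Ndufaf2 had GC box matches, and Atp5sl and Ndufv1 had an E-box match. Nor did all genes higher in both have one. Ndufaf3 and Cox6b2 had a GC box match, while Ndufs4, Ndufb9, Ndufc2 and Uqcrc2 had no match or no promoter found. Promoters were found for 69 of the 82 genes. The NRF1 letters occurred in 20.3% of them, where 4.57% of all 27025 promoters held them, and the ETS letters in 20.3%, where 8.70% did. The GC box letters occurred in 42.0% of the 69 and in 34.9% of all promoters, and the E-box letters in 10.1% and 6.89%. The NF-kB letters occurred in none of the 69 and in 1.53% of all promoters. Genes with the NRF1 letters had a median change at 24 h of 0.27 in KO and 0.05 in WT cells, and genes without them 0.21 and 0.05.

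Cox6a2, the heart and skeletal muscle form of a complex IV subunit, had the largest change at 24 h. Its probe (mm9, chr7:135349160-135349219) read 0.53 and 0.92 at 24 h, against -1.51 and -1.47 untreated, in KO cells. In WT cells it read 0.61 and 0.65 at 24 h, against -1.38 and -1.28 untreated. The 24 h arrays stood far above all others, since at 3 h the gene read -1.56 and -1.65 in KO and -1.45 and -1.37 in WT cells. The rise at 24 h was 4.65-fold in KO cells (log2 change 2.22 ± 0.13 SE, adjusted p = 2.47e-06) and 3.89-fold in WT cells (1.96 ± 0.13, adjusted p = 7.19e-06). Its widespread paralog Cox6a1 had 24 h changes of 0.41 ± 0.12 (adjusted p = 0.0155) in KO and 0.21 ± 0.12 (adjusted p = 0.176) in WT cells.

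The other muscle form that was detected went the other way. Cox7a1, the heart and muscle form of another complex IV subunit, read -0.97 and -0.43 at 24 h, against 0.06 and 0.22 untreated, in KO cells. The WT arrays gave -0.96 and -0.97 at 24 h, against 0.08 and 0.20 untreated. The 24 h arrays were below all the untreated ones, and KO mouse 2 was higher than the other 3. The fall was 1.79-fold in KO (adjusted p = 0.0023) and 2.16-fold in WT cells (adjusted p = 0.000657). The widespread form Cox7a2 was higher at 24 h in KO cells (0.82 ± 0.18, adjusted p = 0.00502) and stood at 0.37 ± 0.18 in WT cells (adjusted p = 0.126). Cox7a2l, which takes part in joining complexes III and IV into supercomplexes, fell by 0.56 in KO and by 0.38 in WT cells at 24 h. All 3 of its probes gave a negative change in both genotypes.

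**Figure D3:**
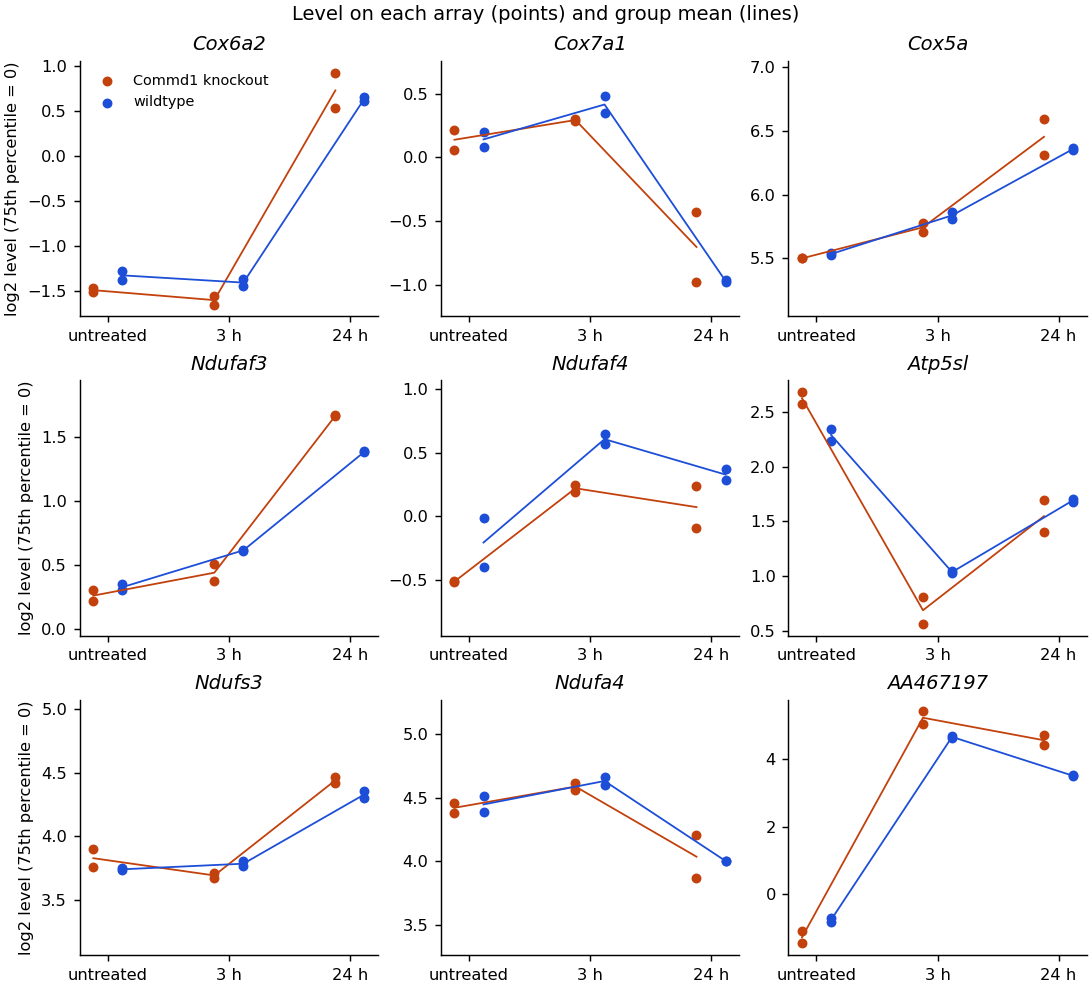
Log2 level on each array (points, 75th percentile of the array = 0) of 8 respiratory chain genes and of AA467197, without LPS and at 3 h and 24 h with it, in Commd1 knockout (orange, left of each pair) and wildtype (blue) macrophages; lines join group means of 2 arrays. Cox6a2 is at -1.28 or lower until 3 h and at 0.53 or higher at 24 h on all 4 arrays, and Atp5sl is lowest at 3 h.

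Cox5a, a nuclear subunit of complex IV present in all tissues, rose at 24 h in both genotypes. It read 6.31 and 6.59 at 24 h, against 5.50 and 5.50 untreated, in KO cells. Its WT levels were 6.36 and 6.35 at 24 h, against 5.54 and 5.52 untreated. All 24 h arrays were above all others, with changes of 0.95 ± 0.10 in KO and 0.82 ± 0.10 in WT cells (adjusted p = 7.51e-05 and 0.000245). Cox5b, its partner outside the membrane, changed by 0.57 ± 0.15 in KO cells (adjusted p = 0.0112) and was at 0.16 ± 0.15 in WT cells, where it did not pass. Cox4i1 and Cox6c had 24 h changes between -0.25 and 0.01 and passed in neither genotype, and the hypoxia-linked form Cox4i2 rose by 0.39 in KO and by 0.46 in WT cells.

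Ndufa4 read 3.87 and 4.20 at 24 h, against 4.38 and 4.46 untreated, in KO cells, and 4.00 and 4.00 at 24 h, against 4.38 and 4.51 untreated, in WT cells. It fell by 0.38 in KO and by 0.44 in WT cells (adjusted p = 0.0202 and 0.0123). Its paralog AA467197, the mouse Nmes1 gene, whose protein is known to take the place of NDUFA4 in inflammatory conditions, lies outside the name rule and rose strongly. AA467197 read 5.41 and 5.04 at 3 h and 4.41 and 4.70 at 24 h, against -1.46 and -1.11 untreated, in KO cells. In WT cells it read 4.69 and 4.63 at 3 h and 3.52 and 3.49 at 24 h, against -0.82 and -0.72 untreated. The rise at 24 h was 57.4-fold in KO cells and 19.4-fold in WT cells (adjusted p = 7.31e-08 and 4.04e-07), and at 3 h 91.3-fold and 43.1-fold. The third paralog, Ndufa4l2, had levels between -6.08 and -5.04 on all arrays and passed in no LPS comparison.

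The core subunits of complex I, the conserved set that carries out electron transfer and proton pumping, had changes of both signs at 24 h. Ndufs3, which helps form the ubiquinone-side arm, read 4.42 and 4.46 at 24 h, against 3.90 and 3.76 untreated, in KO cells. The WT arrays gave 4.36 and 4.30 at 24 h, against 3.75 and 3.74 untreated. The rise was 0.61 ± 0.08 in KO and 0.59 ± 0.08 in WT cells (adjusted p = 0.000253 and 0.00044), with no overlap between the times. Ndufv1, which holds the NADH binding site, fell by 0.40 ± 0.10 in KO and by 0.33 ± 0.10 in WT cells, while its neighbour Ndufv2 rose by 0.54 and by 0.25. Ndufs1, the largest iron-sulfur subunit, changed by -0.40 ± 0.10 in WT cells (adjusted p = 0.0088) and was at -0.23 ± 0.10 in KO cells (adjusted p = 0.0688).

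Of the accessory complex I subunits, Ndufs4 had the largest rise in KO cells with Ndufa11, each at 0.91. Ndufs4, a subunit whose loss causes encephalopathy in mice, read 3.72 and 3.89 at 24 h, against 2.84 and 2.96 untreated, in KO cells. Its WT levels were 3.70 and 3.67 at 24 h, against 3.11 and 3.17 untreated. The rise was 1.87-fold in KO and 1.46-fold in WT cells (adjusted p = 4.87e-05 and 0.00119), and the difference of the responses was 0.36 ± 0.12 (adjusted p = 0.24). Ndufa11, a membrane subunit, read -0.60 and 0.07 at 24 h, against -1.25 and -1.10 untreated, in KO cells, and its WT change of 0.35 ± 0.21 did not pass (adjusted p = 0.204). Ndufb9 rose by 0.70 in KO and by 0.47 in WT cells, and Ndufb11 fell by 0.52 in each.

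The complex I assembly factors gave some of the clearest values of the whole group at 24 h. Ndufaf3, which acts at an early step of the ubiquinone-side arm, read 1.66 and 1.67 at 24 h, against 0.22 and 0.30 untreated, in KO cells. In WT cells it read 1.39 and 1.38 at 24 h, against 0.30 and 0.35 untreated. The rise was 2.66-fold in KO and 2.09-fold in WT cells (adjusted p = 2.28e-06 and 1.62e-05), and the mice of a genotype read nearly alike at each time. Ndufaf2, a late-acting factor, fell by 0.58 in KO and by 0.61 in WT cells. Atp5sl, which had fallen at 3 h, was still lower at 24 h than untreated, by 1.08 in KO and by 0.60 in WT cells, while being higher at 24 h than at 3 h in both. Ndufaf1 did not pass against untreated at 24 h, at 0.20 in KO and 0.10 in WT cells.

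In complex III, the core protein Uqcrc2 read 3.72 and 3.68 at 24 h, against 3.20 and 3.25 untreated, in KO cells, and 3.59 and 3.63 at 24 h, against 3.19 and 3.30 untreated, in WT cells. It rose by 0.47 ± 0.08 and by 0.37 ± 0.08, while its partner core protein Uqcrc1 stood at -0.02 and 0.02 and the Rieske iron-sulfur protein Uqcrfs1 at -0.07 and -0.23, neither past the threshold. Uqcrq, a small subunit, rose by 0.70 ± 0.13 in KO cells (adjusted p = 0.00186) and stood at 0.33 ± 0.13 in WT cells (adjusted p = 0.0623). In complex V all changes at 24 h lay between -0.31 and 0.42. Atp5a1, the alpha subunit of the catalytic head, fell by 0.31 in KO and by 0.28 in WT cells, while Atp5b, the beta subunit, was at 0.19 and 0.05 and passed in neither. The 3 genes for the membrane ring subunit c, Atp5g1, Atp5g2 and Atp5g3, had changes from -0.24 to 0.31 and none passed.

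Compared with 3 h, the 24 h levels gave calls in both directions. In KO cells 24 genes were higher and 9 lower at 24 h than at 3 h (40.2%, where 58.9% of all genes were called, 26.3% higher and 32.6% lower). In WT cells 9 were higher and 19 lower (34.1%, where 52.6% of all genes were called, 25.7% higher and 26.8% lower). With either WT mouse left out, most of the WT calls were lost, and calls over all genes also fell, though less steeply. Of the 28 genes, 27 kept their direction with each mouse left out in turn. Many of the KO calls were also lost in these fits, and all of those genes kept their direction. The WT balance turned round under quantile normalization (21 higher and 8 lower) and cyclic loess (20 higher and 14 lower). Both lists had Cox6a2, Ndufaf3, Atp5sl, Ndufaf1, Cox5a, Cox4i2, Ndufs3, Ndufs4 and Ndufb9 among the higher genes. The medians were 0.11 in KO and -0.12 in WT cells, and by mouse -0.06 and 0.25 in KO and -0.08 and -0.18 in WT cells. Under quantile normalization the medians were 0.24 in KO and 0.040 in WT cells, and under cyclic loess 0.20 and -0.0041. On the 75th percentile scale KO mouse 2 was the only mouse with a positive median, and the difference between the genotypes in this step was not tested.

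Between the genotypes at a given time, almost nothing passed. In untreated cells 1 of the 82 genes was called (where 6.73% of all genes were), and at 3 h and 24 h none was (where 1.66% and 2.39% of all genes were), with 12 and 6 genes at an unadjusted p under 0.05 (24.3% and 21.7% of all genes). Over the means of each mouse, none of the 82 passed and 8 had an unadjusted p under 0.05 (24.0% of all genes), but no gene on the array passed that limma test of 2 against 2 mice (0.00% called). The 1 gene was Ndufab1, the mitochondrial acyl carrier protein that is also a subunit of complex I. It read -1.36 and -1.22 in untreated KO cells, against -0.82 and -0.60 in untreated WT cells. The difference was -0.58 ± 0.14 (95% interval -0.89 to -0.26, adjusted p = 0.0447), and it was not called when KO mouse 1 or either of the WT mice was left out. At 24 h Ndufab1 differed by -0.18 ± 0.14 (adjusted p = 0.493). Ndufaf2 was lower in KO than in WT cells by 0.49, 0.44 and 0.46 in untreated, 3 h and 24 h cells, without passing at any time (adjusted p = 0.0684, 0.107 and 0.11). Over the comparisons of groups, the 95% interval of a change had a median half-width of 0.28, which limits what 2 mice per genotype can show.

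For the subunits encoded in mitochondrial DNA, probes for 12 were above background, and at 24 h 9 were lower and none higher than untreated in KO cells (median -1.24) and likewise 9 lower and none higher in WT cells (median -1.08), where 31.5% and 26.3% of all genes were lower. The array's annotation (mm9) places the probes of 7 of them on the mitochondrial chromosome, but those of ND3, ND4L, COX2, COX3 and ATP8 on chromosome 1, and whether these 5 probes read mitochondrial or nuclear copies was not tested. Of the 7 on the mitochondrial chromosome, ND1, ND2, ND4, ND5 and CYTB were lower in both genotypes. ND3 (chr1:24619613-24619672), named for a membrane subunit of complex I, read -1.09 and -0.58 at 24 h, against 1.73 and 1.56 untreated, in KO cells. The WT arrays gave -0.88 and -0.51 at 24 h, against 1.37 and 1.90 untreated. The times did not overlap, and the fall was 5.58-fold in KO and 5.03-fold in WT cells (adjusted p = 4.95e-05 and 0.000104). CYTB, the mitochondrial cytochrome b of complex III, fell 2.88-fold in KO and 3.26-fold in WT cells. ND6, COX1 and COX2 did not pass at 24 h, and COX1, the catalytic core of complex IV, stood at -0.04 ± 0.08 in KO and 0.06 ± 0.08 in WT cells.

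**Figure D4:**
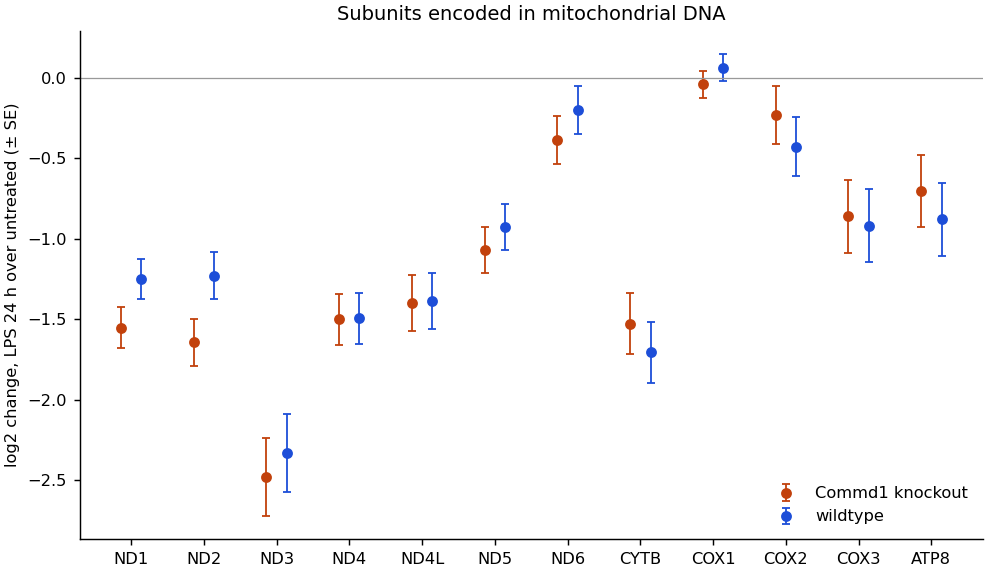
Log2 change after 24 h of LPS over untreated (± SE of the fit, 2 arrays per group) of the 12 subunits encoded in mitochondrial DNA, in Commd1 knockout (orange) and wildtype (blue) macrophages. ND3 is lowest at -2.48 in KO and -2.33 in WT cells, and COX1 lies at 0 within its error in both.

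At 3 h the same 12 genes had positive changes except ND6 in WT cells (-0.33 ± 0.15). The test was passed by 5 of 12 in KO cells (41.7%, where 52.1% of all genes were called) and by 1, ND2, in WT cells (8.33%, where 46.5% of all genes were called), and ND2 was also among the 5 (0.81 ± 0.15 in KO and 0.69 ± 0.15 in WT cells). Tfb2m and Polrmt, which work in mitochondrial transcription, were lower at 24 h as well. Tfb2m, a mitochondrial transcription factor, read -0.82 and -0.51 at 24 h, against 1.30 and 1.07 untreated, in KO cells, and -0.39 and -0.51 at 24 h, against 1.28 and 1.05 untreated, in WT cells. It fell by 1.85 in KO and by 1.61 in WT cells, and Polrmt, the mitochondrial RNA polymerase, fell by 0.76 and by 0.67. Tfam, which packages mitochondrial DNA and takes part in its transcription, was at -0.07 and -0.12 and did not pass.

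Of the 13 regulators of mitochondrial gene expression tested, 6 were higher and 4 lower at 3 h in KO cells, and 5 were higher and 4 lower in WT cells (76.9% and 69.2%, where 52.1% and 46.5% of all genes were called). At 24 h 3 were higher and 3 lower in KO cells, and 3 were higher and 4 lower in WT cells (46.2% and 53.8%, where 57.5% and 49.9% of all genes were called). The coactivator Ppargc1b read -2.11 and -2.10 at 3 h, against -5.67 and -5.30 untreated, in KO cells, and -2.19 and -1.98 at 3 h, against -5.50 and -5.12 untreated, in WT cells. It rose 10.4-fold in KO and 9.35-fold in WT cells at 3 h, and Hif1a rose 4.61-fold and 4.84-fold. Ppargc1a was not above background. Gabpa, the DNA-binding part of the ETS factor GABP, fell by 0.98 in KO and by 0.95 in WT cells at 24 h, while its partner Gabpb1 rose by 0.64 and by 0.33.

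Of the 19 assembly and copper delivery genes of complex IV, 13 were higher and 3 lower at 24 h in KO cells, and 13 were higher and 2 lower in WT cells (84.2% and 78.9%, where 57.5% and 49.9% of all genes were called). Sco1, a copper chaperone for the COX2 subunit, read -0.30 and -0.36 at 24 h, against -2.64 and -2.84 untreated, in KO cells. Its WT levels were -0.95 and -0.92 at 24 h, against -2.80 and -2.70 untreated. The rise was 5.32-fold in KO and 3.52-fold in WT cells, and at 24 h Sco1 was higher in KO than in WT cells by 0.60 ± 0.09 (adjusted p = 0.0238), a call lost when either of the WT mice was left out (adjusted p = 0.418 and 0.396), with no filter on dim probes (0.0589) and with only the groups compared in the fit (0.115). The difference of its 24 h responses, 0.59 ± 0.13, did not pass (adjusted p = 0.0956). Its relative Sco2 fell by 0.95 in KO and by 0.68 in WT cells, and Cox18, which inserts COX2 into the membrane, rose by 2.13 and by 1.56. At 3 h the list was mixed, with 6 higher and 8 lower in KO cells and 7 higher and 5 lower in WT cells (73.7% and 63.2%, where 52.1% and 46.5% of all genes were called).

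Elsewhere in the pathway, Cycs encodes cytochrome c, the mobile carrier between complexes III and IV. Cycs read 3.12 and 3.40 in untreated KO cells, 4.92 and 4.85 at 3 h and 5.88 and 6.02 at 24 h. In WT cells it read 3.77 and 4.19 untreated, 4.87 and 4.98 at 3 h and 5.80 and 5.78 at 24 h. It was lower in untreated KO than in untreated WT cells by 0.72 ± 0.15 (adjusted p = 0.0318), a call lost without WT mouse 1, WT mouse 2 or KO mouse 1 (adjusted p = 0.157, 0.461 and 0.172), with no filter on dim probes (0.0664), with the mean over its probes (0.0773, difference -0.57) and with only the groups compared (0.166), and at 24 h the genotypes differed by 0.16 ± 0.15 (adjusted p = 0.583). Of the 6 complex II genes only Sdhb, the iron-sulfur subunit, and the assembly factor Sdhaf2 were higher at 24 h, Sdhb by 1.01 in KO and by 0.86 in WT cells. Among complex I assembly factors with other names, Tmem126b fell by 1.45 in KO and by 1.15 in WT cells at 3 h and rose by 1.22 and by 0.87 at 24 h over untreated, and Ecsit fell by 0.88 and by 0.67 at 3 h. Sdhaf1, for complex II, and Uqcc3, for complex III, fell at 3 h as well, Sdhaf1 by 1.31 in KO and by 0.66 in WT cells and Uqcc3 by 1.25 and by 0.92. Not all assembly factors fell at 3 h. Of 6 for complex III, 1 was higher and 2 lower in each genotype (50%), the largest rise being 1.61 in KO and 1.18 in WT cells. Of these 6 for complex I, 2 were lower in KO cells (33.3%), and 1 was higher and 2 lower in WT cells (50%). Of all genes, 52.1% were called in KO and 46.5% in WT cells.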

How the data were processed

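RNA from 12 macrophage cultures was hybridised to 1-colour (Cy3) Agilent arrays. The authors deposited scanner files holding processed signal intensity per spot, made with Agilent Feature Extraction 10.7.3.1 per the submitters' processing notes; the genome build per the file headers is mm9. They also deposited a table of log2 values whose columns equal the log2 processed signal minus a constant for nearly all probes (within 0.01 for 99.4% to 99.9% of those above background) and have medians from -4.50 to -4.30; how the constant was chosen is not given in the sources used here.

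Control and outlier spots were left out, log2 intensities were set to each array's 75th percentile, and spots of a probe were averaged. Dim probes were also dropped: a probe stayed if any 1 group had it detected in each of its replicates. The brightest remaining probe stood for a gene. This left 22997 genes of 31693 gene names. Genes tested could thus be undetected on some arrays, whereas the 82 genes were detected on all 12. Ndufs8 lacked a value on 1 array (WT mouse 1, 3 h). One model over the 6 groups was fitted with limma 3.58.1 in R 4.3.3, with Benjamini-Hochberg adjustment over all genes. The p-values rest on the spread between the 2 arrays of a group, pooled over the 6 groups, with no term for the mouse. They cover only these 2 mice per genotype, which are separate animals. Only the test over mouse means has the mouse as its unit. The 6 scalings were the 75th percentile, the same over probes detected on all arrays, quantile, cyclic loess, normexp (offset 50) and the deposited table. Other alternatives changed the filter, the probe rule and the samples fitted, used mouse as a block, or left out a mouse. The mouse is the pairing, with samples of a genotype that share a replicate number taken as the same animal. Residuals of a mouse's samples correlated at 0.12 to 0.35.

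The members, pathway lists and tests were chosen with earlier results of these data known. Named genes are the largest changes per complex and list, core subunits, isoform pairs and genotype calls. Atp5s, Atp5sl, Ndufc2, Ndufv2, Cox18, Ecsit, Gabpa, Gabpb1, Polrmt, Tfam, Sdhaf1, Sdhaf2, Sdhb, ND6, COX1 and COX2 were named after their values were seen.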

Additional observations from a re-analysis of the deposited data

Results flagged for a closer look

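The response of AA467197, the paralog of Ndufa4, to 24 h of LPS differed between the genotypes by a test of the difference itself: it was larger in KO than in WT macrophages by 1.57 ± 0.23 on the log2 scale (limma, adjusted p = 0.0473). The gene read 4.41 and 4.70 in KO cells at 24 h, against 3.52 and 3.49 in WT cells at 24 h, and -1.46 and -1.11 in untreated KO cells, against -0.82 and -0.72 in untreated WT cells. The difference passed under all 6 scalings, with sizes from 1.51 to 1.62. It did not pass with no filter on dim probes (adjusted p = 0.11), with only the groups compared (0.105), with the mouse as a replicate block (0.0598), or without WT mouse 1 (0.463), WT mouse 2 (0.63) or KO mouse 1 (0.0651).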

How the results depend on the processing

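Counts are of the 82 genes called with limma. With only the groups compared in the fit, the count was 22 for KO cells at 24 h over untreated, 5 for KO cells at 3 h, 11 for KO cells at 24 h over 3 h, 43 for WT cells at 24 h over 3 h, and 0 for untreated KO against WT cells. With the percentile over probes detected on all arrays, 8 were called in WT cells at 3 h, and with no filter on dim probes 11. In KO cells at 3 h, quantile normalization gave 32 and cyclic loess 19. For untreated KO against WT cells the count was 2 under quantile, loess and normexp, 3 with only probes detected on all arrays and 0 with no filter, and at 3 h it was 1 under quantile, 1 under loess and 2 under normexp. The cause was not tested.

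The median change of the 82 genes was -0.17 under quantile, -0.030 under the detected-probe percentile and -0.0050 under loess in KO cells at 3 h, and -0.13, 0.044 and 0.035 in WT cells at 3 h. At 24 h it was 0.055 under quantile in KO cells, and -0.076 under quantile and -0.032 under the detected-probe percentile in WT cells. Under quantile normalization these 3 h changes turned negative: Atp5a1 -0.049, Cox8a -0.25 and Uqcrc2 -0.029 in KO cells, and Atp5b -0.011, Atp5g2 -0.30, Atp5g3 -0.23, Cox5a -0.023 and Ndufv1 -0.31 in WT cells; the cause was not tested.

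Leaving out 1 mouse at a time gave counts of 27 to 47 for KO cells at 24 h, 6 to 10 for KO cells at 3 h, 17 to 37 for KO cells at 24 h over 3 h, 4 to 37 for WT cells at 24 h, 1 to 23 for WT cells at 3 h and 3 to 40 for WT cells at 24 h over 3 h. Against WT cells the KO counts were 0 to 2 untreated, 0 to 5 at 3 h, 0 to 5 at 24 h, 0 to 1 over mouse means and 0 to 0 for both differences of responses. A fit without a mouse keeps 1 array in each group of its genotype, and calls of that genotype's LPS changes over all genes fell there as well. The medians of the 82 genes were 0.10 to 0.35 for KO cells at 24 h, 0.11 to 0.13 for KO cells at 3 h, -0.015 to 0.088 for WT cells at 24 h and 0.13 to 0.15 for WT cells at 3 h.

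With the mouse as a replicate block, the counts were 45 for KO cells at 24 h, 12 at 3 h and 35 at 24 h over 3 h, and 26, 19 and 26 for WT cells, none moved by over 1.5 times. The number of arrays limits the precision.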
